A study of Mus musculus with 7 samples.

Results

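The MAP kinase phosphatases of the dual-specificity phosphatase (DUSP) family were followed in neutrophils sorted from acetaminophen-injured mouse livers. The members were defined by gene symbol, as the rows named Dusp1, Dusp2, Dusp3, Dusp4, Dusp5, Dusp6 and Dusp16, with earlier results of these data known. All 7 were present among the 16047 genes measured. The neutrophils came from C57BL/6 mice 24 h after acetaminophen-induced liver injury (AILI), which in the study was caused by 300 mg/kg of acetaminophen given to males aged 8 to 12 weeks after a 12 h fast. PBS neutrophils (n = 4) came from mice given PBS, and MC-21 neutrophils (n = 3) from mice given the anti-CCR2 antibody MC-21, whose livers are labelled as lacking Ly6Chi infiltrating monocytes. Each antibody dose was 400 µL of conditioned medium at 29 µg/mL, given i.p. first at 12 h ahead of acetaminophen and then at 24 h intervals. Both groups received acetaminophen, and no uninjured liver was in the comparison. From each liver 50000 cells of the phenotype CD11b+ Ly6Clo CX3CR1-GFP- Ly6G+ were sorted. The study used Cx3cr1gfp/+ reporter mice beside C57BL/6J mice, and its sequencing methods do not name which were sorted. The labels do not say whether each library was 1 mouse, so p-values set group differences against the spread between these libraries. Levels are RPKM, the reads of a gene scaled to its transcript length and to the mapped reads of the library.

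Mitogen-activated protein kinases (MAPKs) are switched on when a MAPK kinase phosphorylates a threonine and a tyrosine in their activation loop, and DUSP enzymes switch them off by removing both phosphates. The family divides by location and substrate. Dusp1, Dusp2, Dusp4 and Dusp5 encode nuclear phosphatases that are transcribed quickly after stimulation, Dusp6 encodes a cytoplasmic phosphatase selective for ERK, Dusp16 encodes one that acts on JNK and p38, and Dusp3 encodes VHR, a small phosphatase without the kinase-binding domain of the others. In myeloid cells DUSP1 limits p38 and JNK signalling and cytokine production, and its gene is also induced by glucocorticoids.

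The sequence upstream of the start site is shown for 4 members that differ in level: Dusp1 and Dusp2, the most abundant, Dusp3, the one member whose groups did not overlap, and Dusp5, the least abundant. RefSeq held promoters for 6 of the 7 members in build GRCm38.p6, and each run below is the 250 bases before the start site, read 5′ to 3′ on the strand of the gene. Capitals mark matches, on either strand, to the cAMP response element TGACGTCA or its core TGACG, the E-box CACGTG, the CArG box bound by serum response factor, and the NF-kB site. Matches to AP-1 (TGANTCA) and, on the gene's strand only, to the TATA box TATAAA were also searched, and none was found in these members.
Dusp1 (chr17:26508473-26508722, minus strand): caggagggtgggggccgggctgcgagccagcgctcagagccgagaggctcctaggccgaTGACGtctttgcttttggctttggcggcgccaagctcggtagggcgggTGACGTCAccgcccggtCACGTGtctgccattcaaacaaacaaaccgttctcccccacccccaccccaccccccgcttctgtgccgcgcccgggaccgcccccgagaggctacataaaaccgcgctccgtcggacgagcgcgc
Dusp2 (chr2:127335909-127336158, plus strand): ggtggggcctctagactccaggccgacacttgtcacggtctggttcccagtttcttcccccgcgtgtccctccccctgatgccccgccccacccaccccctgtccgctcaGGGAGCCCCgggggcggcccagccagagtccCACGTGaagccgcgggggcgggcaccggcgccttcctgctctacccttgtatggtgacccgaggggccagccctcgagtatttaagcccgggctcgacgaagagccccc
Dusp3 (chr11:101984792-101985041, minus strand): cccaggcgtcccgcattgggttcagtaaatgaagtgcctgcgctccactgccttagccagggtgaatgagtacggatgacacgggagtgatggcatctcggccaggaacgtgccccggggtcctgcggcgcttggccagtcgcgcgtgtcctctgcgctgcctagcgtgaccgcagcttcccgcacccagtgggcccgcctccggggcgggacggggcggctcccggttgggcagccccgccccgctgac
Dusp5 (chr19:53528895-53529144, plus strand): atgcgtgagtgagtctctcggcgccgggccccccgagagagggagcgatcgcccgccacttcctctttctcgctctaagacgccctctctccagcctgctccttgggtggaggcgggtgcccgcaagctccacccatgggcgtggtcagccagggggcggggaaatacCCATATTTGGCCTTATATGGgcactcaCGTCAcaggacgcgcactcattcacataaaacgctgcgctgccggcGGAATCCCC

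The Dusp1 window held 1 full cAMP response element, which starts 143 bases before the start site, and 1 E-box at 126 bases. Cores were matched at 191, 143 and 140 bases, the last 2 of them inside the full element on either strand. A full element was present in 1.62% and an E-box in 6.05% of the 27025 promoters searched in windows of the same length. The Dusp2 window held an E-box at 109 bases and an NF-kB site at 140 bases, and NF-kB sites were present in 7.86% of promoters. The Dusp5 window held CArG boxes at 82 and 72 bases, a core at 55 bases and an NF-kB site at 9 bases, and a CArG box was present in 1.40% of promoters. The core was present in 17.9% of promoters, AP-1 in 6.87% and the TATA box in 8.12%. The windows of Dusp3 and Dusp6 held none of these motifs, and that of Dusp16 held 1 core and 1 NF-kB site. These are matches of letters and no evidence of binding.

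The 7 members spanned from one of the most abundant transcripts of these neutrophils to a near-absent one. In PBS neutrophils the mean level was 2518 RPKM for Dusp1, 189 for Dusp2, 44.0 for Dusp3, 19.8 for Dusp6, 5.38 for Dusp16, 1.88 for Dusp4 and 0.353 for Dusp5. The PBS ranges of the neighbours in this order did not overlap in any of the 6 pairs. These are 3′ libraries, in which about 1 end per transcript is read and division by length can lower long genes. Multiplied by transcript length the order was unchanged, and 5 of the 6 neighbouring pairs remained apart. Dusp1 was the 20th most abundant of all genes in PBS neutrophils and the 21st in MC-21 neutrophils. Of the summed RPKM of all 23 genes with a Dusp symbol, Dusp1 made up between 86.7% and 90.1% in every library, and Dusp2 between 5.12% and 8.74%.

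**Figure D1:**
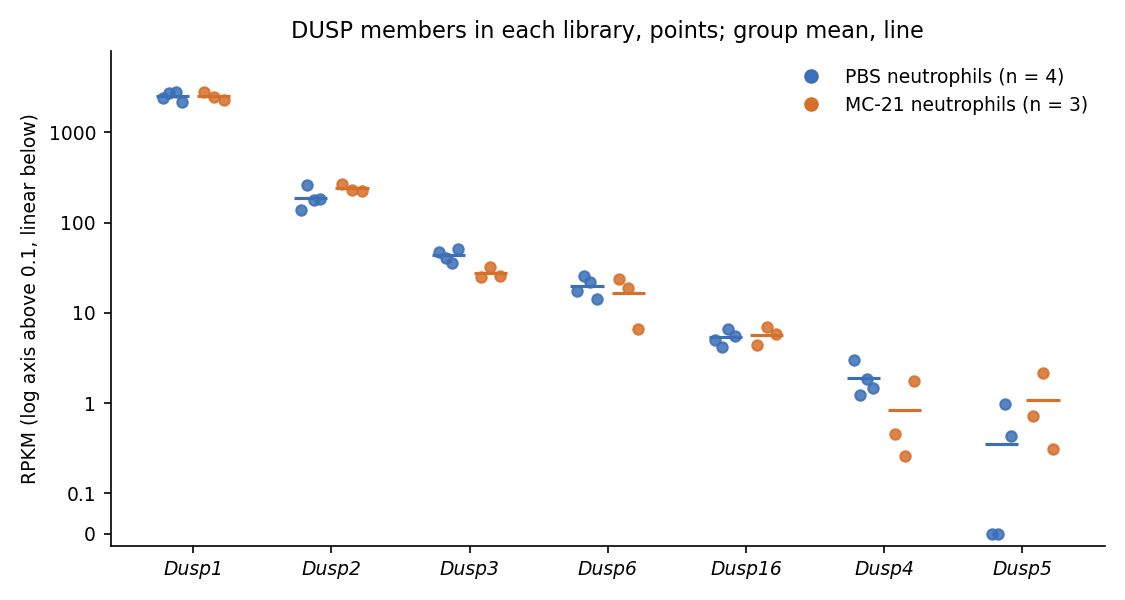
RPKM of each DUSP member in each library (points) with the group mean (line), on a log axis above 0.1 and a linear one below, for PBS neutrophils (blue, n = 4) and MC-21 neutrophils (orange, n = 3). Only for Dusp3 do all MC-21 points, 25.1 to 32.3 RPKM, lie outside the PBS points, 36.1 to 51.5 RPKM.

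The comparison of MC-21 with PBS neutrophils asks whether the lack of Ly6Chi monocytes goes with altered phosphatase transcripts. Of the 7 members, 6 passed the filter (mean RPKM of 1 or more), and Dusp5, at a mean of 0.661 RPKM, did not. None of the 6 differed at an adjusted p under 0.05 (limma, Benjamini-Hochberg over 9594 genes), where 0.625% of all genes tested did. At an unadjusted p under 0.05, 1 member was called (Dusp3), beside 14.7% of all genes tested. The same member was the only one whose groups did not overlap, beside 13.3% of genes tested. With 1 of 6 members in either count, the members were near the share over the whole table. Their median log2 fold change was -0.19 (3 higher, 3 lower), beside -0.15 over all genes tested, of which 69.4% were lower in MC-21 neutrophils. Centring each library on its median raised the median of all genes by 0.16, and the differences below are also given relative to the median of all genes.

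**Figure D2:**
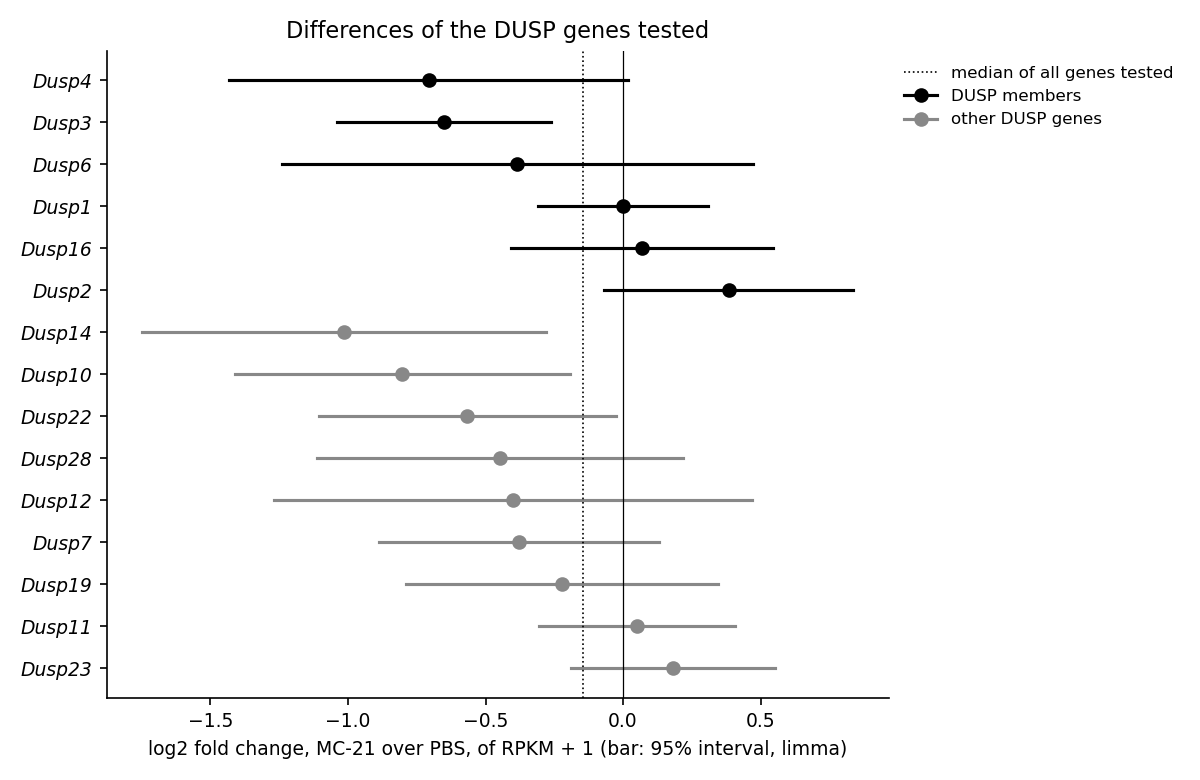
Log2 fold change of RPKM + 1 in MC-21 over PBS neutrophils (limma, points) with 95% intervals (bars) for the 6 DUSP members tested (black) and 9 other DUSP genes tested (grey); the dotted line is the median of all genes tested, -0.15. Among the members only the interval of Dusp3, from -1.04 to -0.26, lies below 0 throughout.

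Dusp1 encodes the stress-induced nuclear phosphatase MKP-1 and lies on chromosome 17 from 26642535 to 26645464, minus strand, in mm9, the build of the files. Its level was 2381, 2755, 2791 and 2145 RPKM in PBS replicates 5 to 8 and 2825, 2452 and 2267 RPKM in MC-21 replicates 2 to 4. The groups overlapped throughout, and the highest library exceeded the lowest 1.32-fold, a range smaller than that of all but 6.11% of genes tested. The mean was 2518 ± 310 RPKM over the 4 PBS libraries and 2515 ± 284 RPKM over the 3 MC-21 libraries (± SD). The log2 fold change was 0.00 (standard error 0.14, 95% interval -0.31 to 0.31, adjusted p = 0.998 from limma), or 0.15 relative to the median of all genes. The interval corresponds to a change between 0.808-fold and 1.24-fold. About 7766 to 20083 reads per library lay behind these values. The sign was negative under quantile normalization and when some libraries were left out, always within 0.09 of 0.

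Dusp2, or PAC-1, encodes an inducible nuclear phosphatase of activated leukocytes and lies on chromosome 2 from 127161895 to 127164112, plus strand. Its level was 137, 260, 177 and 181 RPKM in PBS replicates 5 to 8 and 265, 230 and 227 RPKM in MC-21 replicates 2 to 4. The MC-21 libraries were above all PBS libraries but replicate 6, so the groups overlapped. The log2 fold change was 0.38 (standard error 0.20, 95% interval -0.07 to 0.84, adjusted p = 0.417 from limma; two-sided exact permutation test, p = 0.143), or 0.53 relative to the median of all genes. PBS replicate 6 decided the overlap. Without it the log2 fold change was 0.55 (adjusted p = 0.159 from limma), and without PBS replicate 5, the lowest library, it was 0.24 (adjusted p = 0.610).

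Dusp4 and Dusp5 encode the other inducible nuclear phosphatases, MKP-2 and an ERK-selective enzyme, and both had the lowest levels of the members. Dusp4, on chromosome 8 from 35870351 to 35882948, plus strand, was at 2.98, 1.24, 1.86 and 1.46 RPKM in PBS replicates 5 to 8 and at 0.461, 0.259 and 1.78 RPKM in MC-21 replicates 2 to 4. MC-21 replicates 2 and 3 were below every PBS library and replicate 4 was among them. With means of 1.88 RPKM in PBS and 0.833 RPKM in MC-21 libraries, Dusp4 passed the filter only through PBS. The log2 fold change was -0.71 (standard error 0.32, 95% interval -1.43 to 0.02, adjusted p = 0.353 from limma; two-sided exact permutation test, p = 0.143), or -0.56 relative to the median of all genes. The levels correspond to about 20, 10, 12 and 14 reads in the PBS libraries and 4, 1 and 12 in the MC-21 libraries, estimated from the steps between low values. For this the transcript length was fitted, within 15% of the annotated 2740 bases, so that reads came out whole, which gave 2428 bases. At the annotated length they would be 22.6, 11.3, 13.5 and 15.8 reads in PBS and 4.52, 1.13 and 13.5 in MC-21 libraries. With 1 library left out the log2 fold change was between -1.05 (without MC-21 replicate 4) and -0.48 (without MC-21 replicate 3). It was -1.38 with a pseudocount of 0.1 in place of 1 and -0.48 under quantile normalization.

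Dusp5, on chromosome 19 from 53603599 to 53616921, plus strand, was listed at 0 in PBS replicates 5 and 6, at 0.977 and 0.437 RPKM in replicates 7 and 8, and at 0.727, 2.18 and 0.311 RPKM in MC-21 replicates 2 to 4. It was detected in all 3 MC-21 and 2 of 4 PBS libraries, and the groups overlapped. The steps between low values put it at no more than about 8 reads in any library, a number that may be too high because the estimates share a common factor. Its transcript length was fitted in the same way, at 2310 bases against 2473 annotated. The difference of mean log2(RPKM + 1), MC-21 minus PBS, was 0.57, with no fit across genes because Dusp5 did not pass the filter (two-sided exact permutation test, p = 0.229).

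Dusp3, which encodes VHR, a phosphatase of ERK and JNK, lies on chromosome 11 from 101832457 to 101848327, minus strand. Its level was 47.4, 40.9, 36.1 and 51.5 RPKM in PBS replicates 5 to 8 and 25.1, 32.3 and 25.3 RPKM in MC-21 replicates 2 to 4. Every MC-21 library was below every PBS library. The mean was 44.0 ± 6.85 RPKM over the 4 PBS libraries and 27.6 ± 4.09 RPKM over the 3 MC-21 libraries (± SD), a ratio of 0.627. The log2 fold change was -0.65 (standard error 0.17, 95% interval -1.04 to -0.26, adjusted p = 0.151 from limma), or -0.51 relative to the median of all genes. The two-sided exact permutation test gave p = 0.0286, the smallest value that 4 against 3 libraries allow. The difference was larger than the spread between replicates but did not pass the correction over all genes, with adjusted p from 0.126 to 0.368 over the alternatives tried. With any 1 library left out the log2 fold change stayed between -0.77 and -0.57.

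Marker genes of other cells were set beside Dusp3 in the same libraries. Of 15 monocyte and macrophage markers listed, 11 were tested and all 11 were lower in MC-21 neutrophils, beside 69.4% of all genes tested. In limma 5 passed an adjusted p under 0.05 (C1qa, C1qb, C1qc, Ccr2 and Fcgr1), beside 0.625% of all genes tested. That count was 2 without PBS replicate 7 or 8, 3 without MC-21 replicate 2 or 4, and 0 with no filter on low values. Among the 11, Ccr2 (mean 2.42 RPKM in PBS and 0.197 in MC-21 libraries) and Cx3cr1 (2.10 and 0.628) passed the filter only through PBS. The direction of Ccr2 and Cx3cr1 was therefore partly set by the filter. The study had already reported Fcgr1 and the C1q genes as lower in MC-21 neutrophils from these data, so their fall is no separate result. The summed level of the monocyte and macrophage markers was between 433 and 495 RPKM in PBS and between 178 and 230 RPKM in MC-21 libraries. By library it was 433, 464, 495 and 491 RPKM in PBS replicates 5 to 8 and 230, 223 and 178 RPKM in MC-21 replicates 2 to 4. C1qa, C1qb and C1qc made up most of it. Ccr2 and Vsig4 were listed at 0 in MC-21 replicate 3, Ms4a7 in MC-21 replicate 4, and Mertk in PBS replicate 8 and MC-21 replicate 4. The 5 endothelial markers were present at summed levels of 856 to 2059 RPKM in PBS and 1080 to 1963 RPKM in MC-21 libraries, and none was called. Their sums were 2059, 1538, 856 and 1933 RPKM in PBS replicates 5 to 8 and 1255, 1963 and 1080 RPKM in MC-21 replicates 2 to 4. Neither these sums nor those of the monocyte and macrophage markers were tested against the library order of Dusp3. The sort was for neutrophils, and in such a bulk sample fewer cells of a type and less RNA per cell cannot be told apart. The part of these cells in the Dusp3 difference was not tested.

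**Figure D3:**
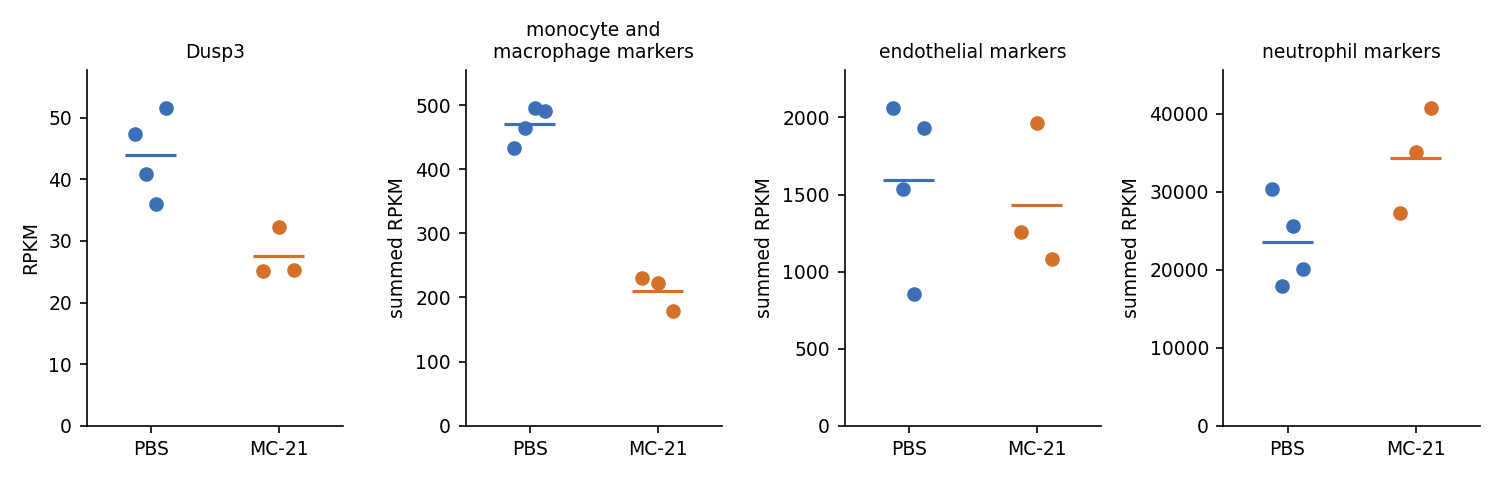
Level of Dusp3 (RPKM) and summed level of the monocyte and macrophage, endothelial and neutrophil markers (summed RPKM) in each PBS (blue) and MC-21 (orange) library, with the group mean as a line and each axis starting at 0. Dusp3 and the summed monocyte and macrophage markers are lower in all 3 MC-21 libraries than in all 4 PBS libraries, while the endothelial and the neutrophil sums overlap. C1qa, C1qb and C1qc (PBS means 117, 155 and 76.3 RPKM) make up most of the monocyte and macrophage sum, and their fall was already reported by the study. Of the 11 markers tested in that list, 7 do not overlap between groups, beside 13.3% of all genes tested. S100a9 (12275 to 25041 RPKM) makes up most of the neutrophil sum. Clec4g (474 to 1539 RPKM) is the largest part of the endothelial sum, so changes of lower markers do not show.

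Dusp6, the cytoplasmic ERK phosphatase MKP-3 and a known transcriptional target of ERK signalling, lies on chromosome 10 from 98725865 to 98730122, plus strand. Its level was 17.6, 25.3, 21.9 and 14.2 RPKM in PBS replicates 5 to 8 and 23.8, 19.1 and 6.56 RPKM in MC-21 replicates 2 to 4. MC-21 replicate 4 was below all other libraries at 0.463 times the lowest of them, and the other MC-21 libraries lay within the PBS range. The log2 fold change was -0.38 (standard error 0.38, 95% interval -1.24 to 0.47, adjusted p = 0.682 from limma; two-sided exact permutation test, p = 0.571), or -0.24 relative to the median of all genes. Without MC-21 replicate 4 it was 0.14, so that library set its direction. MC-21 replicate 4 stood apart at other genes too. It was lower than every other library by more than a factor of 2 at 146 of 5860 genes averaging 5 RPKM or more, and each other library was so at 6 to 22 genes.

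Dusp16, or MKP-7, a phosphatase of JNK and p38, lies on chromosome 6 from 134665488 to 134742643, minus strand. Its level was 5.02, 4.23, 6.69 and 5.58 RPKM in PBS replicates 5 to 8 and 4.38, 7.01 and 5.77 RPKM in MC-21 replicates 2 to 4. The groups overlapped throughout. The log2 fold change was 0.07 (standard error 0.21, 95% interval -0.41 to 0.55, adjusted p = 0.904 from limma), or 0.21 relative to the median of all genes. It was -0.02 without PBS replicate 6 and -0.07 without MC-21 replicate 3.

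The members with the widest range over the 7 libraries that passed the filter were Dusp6 (1.80 on the log2 scale), Dusp4 (1.66) and Dusp3 (1.01), and the 3 genes with the most similar profile are named for each. Similarity was the root mean square difference of log2(RPKM + 1), each gene centred on its own mean, among genes averaging 5 RPKM or more. For Dusp6 these were Hnrnph2 (0.113), Vdac2 (0.121) and Naa20 (0.126), all lowest in MC-21 replicate 4. Vdac2 was at 22.9 RPKM there and at 45.3 to 94.0 RPKM in the other libraries. Without MC-21 replicate 4 the nearest genes were Sdhd, H3f3a and Eif4a3, and 14 of the 50 nearest genes over 7 libraries were among the 50 nearest over 6, an alternative chosen after seeing the data. For Dusp4 they were 2410002F23Rik (0.231), Epha2 (0.231) and Mrpl28 (0.232), at larger distances. For Dusp3 they were Rapgef3 (0.081), Mmrn2 (0.085) and Man1c1 (0.094). Mmrn2, a glycoprotein gene of endothelial cells, was at 60.2 to 91.7 RPKM in PBS and 43.9 to 59.1 RPKM in MC-21 libraries. Of the 5 endothelial markers, Cdh5 (-0.54), Kdr (-0.49) and Clec4g (-0.19) had negative and Pecam1 (0.31) and Stab2 (0.16) positive log2 fold changes.

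**Figure D4:**
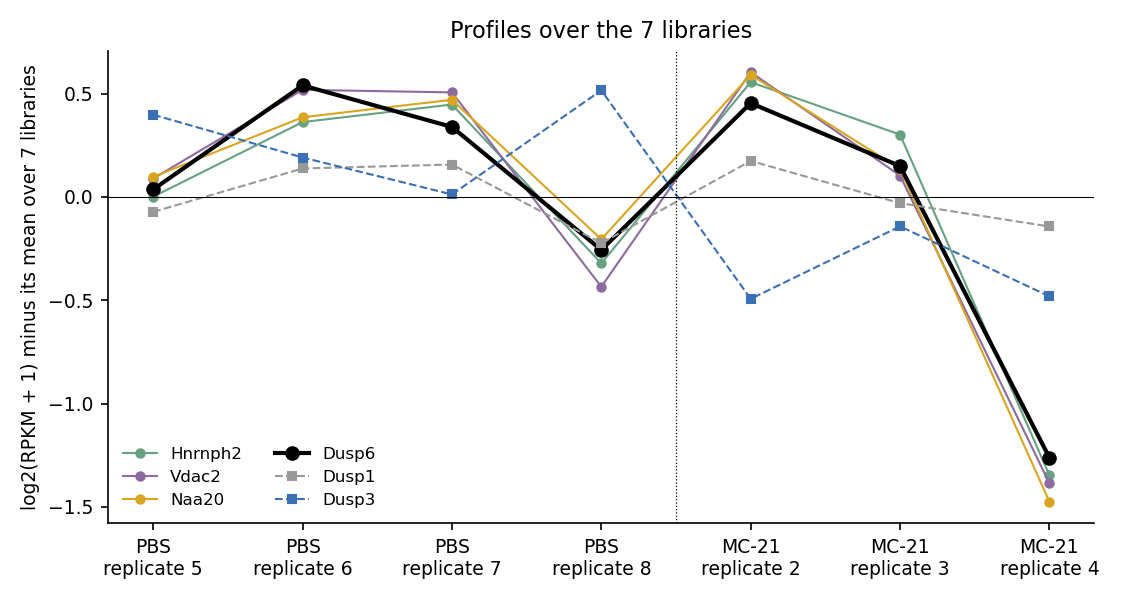
Log2(RPKM + 1) minus its mean over the 7 libraries, by library, for Dusp6 (black), the 3 genes most like it (solid lines), Dusp1 (grey dashed) and Dusp3 (blue dashed). Dusp6, Hnrnph2, Vdac2 and Naa20 have their lowest value in MC-21 replicate 4, where Dusp6 was 6.56 RPKM, while Dusp1 is nearly level.

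None of the other genes of the pathway passed an adjusted p under 0.05 in limma. Of 19 other DUSP genes, 18 were in the table and 9 were tested, of which 2 were higher and 7 lower, with a median log2 fold change of -0.40. At an unadjusted p under 0.05, 3 of these were lower and none higher. Of all 9594 genes tested, 69.4% were lower, and at that threshold 1071 were lower and 344 higher. Dusp10, a JNK and p38 phosphatase, was at 2.67, 0.996, 2.77 and 2.79 RPKM in PBS replicates 5 to 8 and at 0.929, 0.927 and 0.663 RPKM in MC-21 replicates 2 to 4 (log2 fold change -0.80, adjusted p = 0.237). Its groups did not overlap, nor did those of Dusp14 (log2 fold change -1.01, adjusted p = 0.217), so 2 of 9 were apart, beside 13.3% of all genes tested. Dusp14 was at 2.76, 2.29, 0.782 and 0.875 RPKM in PBS replicates 5 to 8. It was at 0.582, 0 and 0.249 RPKM in MC-21 replicates 2 to 4. Both genes averaged under 1 RPKM in MC-21 libraries (0.840 for Dusp10, 0.277 for Dusp14). They passed the filter only through PBS, so their direction was partly set by it. Dusp23 and Dusp11 had log2 fold changes of 0.18 and 0.05.

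Of 28 genes of the MAP kinase cascade, 24 were tested, 7 higher and 17 lower, with a median of -0.24. Over all genes tested 69.4% were lower and the median was -0.15. At an unadjusted p under 0.05, 5 cascade genes were lower and none higher, beside 1071 lower and 344 higher of all 9594 genes tested. Mapk11, which encodes p38β, was at 6.27 to 9.20 RPKM in PBS and 3.09 to 5.85 RPKM in MC-21 libraries with no overlap (log2 fold change -0.89, adjusted p = 0.149). Map2k1, which encodes the ERK kinase MEK1, gave -0.77 on the log2 scale (adjusted p = 0.398) and was at 4.82 RPKM in MC-21 replicate 4, its lowest library, without which it gave -0.25. Braf and Map3k3 had log2 fold changes of 0.37 and 0.12. Of 10 MAPK-activated kinases, 9 were tested, 3 higher and 6 lower, with a median of -0.03. Rps6ka4, a nuclear kinase downstream of p38 and ERK, had the largest fall of these (log2 fold change -0.71, adjusted p = 0.218), followed by Rps6ka2 (-0.52), and Mapkapk3 (0.25) and Rps6ka3 (0.20) the largest rises. Of 14 other inhibitors of the pathway, 7 were tested, 1 higher (Spred3, 0.28) and 6 lower, led by Spry4 (-0.43) and Ptpn7 (-0.36), with a median of -0.13.

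Immediate early genes, which like Dusp1 are transcribed within minutes of stimulation, had PBS means from 0.174 RPKM (Fosl1, which did not pass the filter) to 1868 RPKM (Zfp36). In PBS neutrophils Dusp1 was above every one of the 22 listed, ahead of Zfp36 and Nr4a1 (1017 RPKM), also after multiplication by transcript length. Of 21 tested, 10 were higher and 11 lower, with a median log2 fold change of 0.00. At an unadjusted p under 0.05, 2 were higher and 3 lower, beside 344 higher and 1071 lower of all 9594 genes tested. Atf3, a stress-induced transcription factor gene, gave -0.52 on the log2 scale (adjusted p = 0.165) and Klf4 gave -0.67 (adjusted p = 0.224), while Egr2 and Egr3 had 0.76 and 0.57. All 8 heat shock genes of tissue dissociation were tested, with a median of 0.13 and none at an unadjusted p under 0.05; Hspa8 (0.21) and Hsp90aa1 (0.19) had the largest rises and Hspa1b (-0.24) and Hsp90ab1 (-0.24) the largest falls. Both groups were digested with collagenase before sorting, and the part of this step in the level of Dusp1 was not tested. Of 8 glucocorticoid-induced genes, 7 were tested, 5 higher and 2 lower, with a median of 0.40. At an unadjusted p under 0.05, 4 were higher and 1 lower, beside the same 344 higher and 1071 lower of all genes tested. Fkbp5, a chaperone gene induced by the glucocorticoid receptor, was at 26.0 ± 5.13 RPKM over the PBS libraries and 60.4 ± 17.6 RPKM over the MC-21 libraries (± SD, n = 4 and 3), with no overlap (log2 fold change 1.17, adjusted p = 0.0572 from limma), with adjusted p from 0.00704 to 0.187 over the alternatives. It passed 0.05 with each library centred on its median, with a minimum mean of 5 RPKM and with a covariate for the second principal component, the last chosen after seeing the data. The study had already reported higher Fkbp5 in MC-21 neutrophils from these data, so its rise is no separate result. Per1 had a log2 fold change of 0.61, Ddit4 -0.19 and Sgk1 -0.58. Dusp1 showed no such difference in the same libraries.

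By the steps between low values, 1 RPKM stood for about 1.59 to 3.96 reads per 1 kb of transcript, depending on the library. The cells carry the label of neutrophils, and all 10 neutrophil markers were tested: S100a8 was between 2538 and 7648 RPKM and Csf3r between 270 and 328 RPKM in the 7 libraries, and none was called, with Camp (log2 fold change -1.89) and Ltf (-0.69) the largest falls and S100a8 and Retnlg (both 0.83) the largest rises. The 5 hepatocyte markers summed to 131 to 370 RPKM and the 7 lymphocyte markers to 10.1 to 35.2 RPKM. The 4 dendritic cell markers summed to 1.37 to 7.91 RPKM and the 4 eosinophil and basophil markers in the table to 10.5 to 21.6 RPKM. All 5 hepatocyte, 4 lymphocyte, 1 dendritic cell and 2 eosinophil and basophil markers were tested, and none of those tested was called. The largest differences among those tested were Serpina1c (-0.44) and Ttr (-0.38) of the hepatocyte and Cd79b (-0.78) and Cd79a (-0.71) of the lymphocyte markers. Those of the other lists were Ccr7 (-1.22) of the dendritic cell, and Siglecf (-0.27) and Mcpt8 (0.34) of the eosinophil and basophil markers. The groups of Cd79b and Ccr7 did not overlap, beside 13.3% of all genes tested.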

How the data were processed

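Neutrophils from PBS livers (4 libraries) and MC-21 livers (3 libraries) were profiled by 3′ RNA-seq. The authors mapped reads to mm9 with HISAT 0.1.5, converted them with SAMtools and deposited RPKM per gene from Partek 6.6, a unit that divides by length although 3′ libraries read about 1 end per transcript. RPKM are not counts, so no count test was used. From them log2(RPKM + 1) was computed for genes averaging 1 RPKM or more (9594 of 16047) and compared with limma 3.58.1 in R 4.3.3 (lmFit, eBayes with trend, Benjamini-Hochberg over all genes tested, threshold 0.05); fold changes are on that scale, which understates changes of low genes. Single values were also compared with the two-sided exact permutation test over the 35 ways to draw 3 of 7 libraries (scipy 1.17.1). The filter used the mean over all 7 libraries, so a gene could pass it through 1 group alone. The fit was tested on simulated data. Depth was estimated from low values of genes with 1 transcript: 77.8% of 3071 values lay within 0.1 of a whole read. These depths set the approximate reads per gene, with annotated transcript lengths except for Dusp4 and Dusp5, whose lengths were fitted to give whole reads. Positions and transcript lengths are from GENCODE vM1 (mm9), and promoters from RefSeq (GRCm38.p6).

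The members and lists were chosen with earlier results of these data known. Named genes are all members; in every other list the 2 genes that rose most and the 2 that fell most among those tested, and any with an adjusted p under 0.05; and for the 3 members with the widest range the 3 genes of most similar profile. Zfp36, Nr4a1, Csf3r, Vsig4, Ms4a7 and Mertk, outside this rule, were named after their values were seen. Alternatives were another pseudocount, other filters, other scalings, no trend, a covariate for the second principal component (added after the data were seen) and each library left out.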

Additional observations from a re-analysis of the deposited data

How the results depend on the processing

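No DUSP member, and no other DUSP, MAP kinase cascade, MAPK-activated kinase, MAPK inhibitor or immediate early gene listed, passed an adjusted p under 0.05 in limma under any of the 14 alternatives, and the lowest adjusted p of a member was 0.126. Members with an unadjusted p under 0.05 numbered 1, and 2 with a pseudocount of 0.1, with each library centred on its median and in limma without a trend; with 1 library left out they numbered 1 to 3. Members without overlap numbered 1, and 1 to 2 with 1 library left out (Dusp2 without PBS replicate 6, Dusp4 without MC-21 replicate 4). For these 2 counts the share over all genes was computed only with all 7 libraries, at 14.7% and 13.3%. A higher count under an alternative is therefore not read as a result about the members. Genes called numbered 60 over the whole table, 4 with no filter on low values, 152 with a covariate for the second principal component (chosen after seeing the data), and 9 (without PBS replicate 8) to 102 (without PBS replicate 6) with 1 library left out.

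The sign turned in 8 of 83 alternatives of the 6 tested members. Dusp1 was at -0.0549 under quantile normalization and at -0.0546 with that covariate, and between -0.0863 and 0.0723 with 1 library left out. Dusp6 was between -0.72 and 0.14 (without MC-21 replicate 4) and Dusp16 between -0.0664 and 0.22. Dusp5 was at 1.74 with a pseudocount of 0.1, and between 0.21 and 0.85 with 1 library left out. Dusp4 and Dusp5 could not be fitted at a mean of at least 5 RPKM. The causes were not tested. Among 3′ libraries of 1.59 to 3.96 reads per RPKM and 1 kb of transcript, the values of Dusp4 and Dusp5 rest on the fewest reads of the members. No paired analysis was possible because the groups share no replicate numbers.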
